A study of Mus musculus with 4 samples.

Results

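The alpha class of glutathione transferases was examined in cultured mouse muscle cells through 6 genes, Gsta1, Gsta2, Gsta3, Gsta4, Gm3776 and Gm10639. They were picked by symbol out of 45777 genes, with values from these same libraries already known. Their levels and ratios are therefore given as a description, and no test rests on them. In short, 5 of the 6 had their highest level in the library titled EPS control and their lowest in the library titled EPS. The clenbuterol library and its control lay between these and, apart from Gsta2, close to each other. The remaining gene, Gsta3, was close to absent.

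Glutathione transferases attach the tripeptide glutathione to reactive electrophiles, which makes them more soluble and ready for export from the cell. Alpha-class enzymes work as dimers and also reduce organic peroxides. They are abundant in liver, and their genes are textbook targets of NRF2, a transcription factor that oxidative or electrophilic stress releases from its inhibitor KEAP1. The enzyme encoded by Gsta4 acts on reactive aldehydes such as hydroxynonenal, which arise when membrane lipids are oxidised.

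The series held 4 groups of C2C12 myotubes with 1 library each. C2C12 is a mouse myoblast line, and its cells fuse into multinucleate myotubes when serum is low. The cultures grew in DMEM with horse serum at 2% and a supplement that the labels call PS at 1%. By title the groups were EPS, a control for EPS, clenbuterol, and a control for clenbuterol. Clenbuterol is a beta-adrenergic agonist, and EPS is taken to mean electrical pulse stimulation, although the labels leave it as an abbreviation. A treatment of 30 ng/ml clenbuterol is entered for all 4 libraries, controls included, so that field does not separate the groups. The sources used here give neither pulse settings nor exposure times.

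The EPS pair carries contradictory names. Data named EPS belong to the record titled as the EPS control, and data named EPSCtrl belong to the record titled EPS. A group field reading EPS also sits on the record titled EPS. Groups below follow the titles. Each direction in the EPS pair turns round if the data names are the right ones, in which case the family was higher under EPS than in its control. The clenbuterol pair has no such conflict. With 1 library a group there is no spread between cultures, and the intervals given cover counting error only.

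Total estimated counts ran from 32640884 to 35597074 per library, and 13412 to 13489 genes reached a TPM (a transcript level scaled for gene length and depth) of 1. All 10 myotube markers examined were expressed, with a summed TPM of 20030 in the library titled EPS, 23811 in the library titled EPS control, 29101 with clenbuterol and 28978 in its control. In the EPS pair 9 of these 10 markers were lower by title, and Actn2, the sarcomeric alpha-actinin gene, was 2.40-fold lower (95% counting interval 2.21 to 2.61). The part of this shift in the results below was not tested. Of 6 hepatocyte markers 5 were at 0 in every library, albumin among them, and their summed TPM was at most 0.147. Immune markers summed to between 2.93 and 5.02, nearly all of it Cd68, and epithelial markers to between 16.0 and 23.0, mostly Krt19.

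Of the 6 genes, 4 are near-identical copies, which limits what can be said of any of them alone. In the coding sequences of GENCODE M21 (GRCm38), Gsta1 and Gm3776 were identical over 99.7% of alignment positions, with 2 mismatches in 672 bases. Gap positions count as differences in all the coding percentages given here. Gsta2 and Gm10639 were identical over 98.5%, with 10 mismatches. Across all 6 pairings of these 4 genes the identity ran from 96.9% to 99.7%. Gsta3 shared 73.6% to 74.8% with the 4 copies, and Gsta4 shared 65.2% to 66.2% with the 5 other members. The most variable 90 coding bases of the copies, bases 580 to 669 counted from the A of the Gsta1 start codon, are shown to make the problem visible. Capitals mark the 8 positions at which the 4 genes are not all alike, out of 25 such positions in the whole coding sequence.
Gsta1: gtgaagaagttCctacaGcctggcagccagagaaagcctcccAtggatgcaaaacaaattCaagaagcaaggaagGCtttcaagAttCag
Gm3776: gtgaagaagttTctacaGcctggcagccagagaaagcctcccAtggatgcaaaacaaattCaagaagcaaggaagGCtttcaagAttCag
Gm10639: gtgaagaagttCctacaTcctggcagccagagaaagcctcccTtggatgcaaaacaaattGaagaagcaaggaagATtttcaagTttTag
Gsta2: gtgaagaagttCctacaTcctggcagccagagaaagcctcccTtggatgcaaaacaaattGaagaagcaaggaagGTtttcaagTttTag
Within this stretch Gm3776 differed from Gsta1 at 1 position, Gsta2 at 6 and Gm10639 at 7. The coding sequences of Gsta2 and Gm10639, of 669 bases, end with it, and those of Gsta1 and Gm3776 run on to 672 bases.

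A read of 100 bases taken from these transcripts often has no unique home. Of the 100-base windows in the transcript, 18.2% were found in no other gene's transcript for Gsta1 and 14.5% for Gm3776. The share was 57.5% for Gm10639 and 65.0% for Gsta2, and 100% for both Gsta3 and Gsta4. The sources used here do not say how the authors' program treated reads that match several copies. By these exact matches, values for Gsta4 would not depend on that treatment, and those for single copies would. Matches with mismatches and other read lengths were not examined. The sum of the copies is free of how reads were divided among them, but not of whether shared reads were dropped.

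The start regions of the copies are also alike. RefSeq promoter windows of GRCm38.p6, 250 bases before to 50 after the annotated start, were found for 5 of the 6 members, Gsta4 being the member without an entry. Gsta1 and Gm3776 were identical over 99.0% of 287 aligned bases, Gsta1 and Gm10639 over 97.9% of 285, and Gsta1 and Gsta2 over 79.6% of 289. Gap bases, 26, 30 and 22 in that order, are left out of these promoter percentages. The 120 bases before and 20 after the start are shown for the copies, to make this likeness visible. They lie on the plus strand at chr9:78230549-78230688 (Gsta1), chr9:78257009-78257148 (Gm3776) and chr9:78289808-78289947 (Gm10639), and on the minus strand at chr9:78347126-78347265 (Gsta2). Capitals mark the letters GCGTG, the core of the element bound by the aryl hydrocarbon receptor.
Gsta1: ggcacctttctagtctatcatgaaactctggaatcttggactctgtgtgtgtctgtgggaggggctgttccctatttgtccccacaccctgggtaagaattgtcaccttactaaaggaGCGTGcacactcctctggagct
Gm3776: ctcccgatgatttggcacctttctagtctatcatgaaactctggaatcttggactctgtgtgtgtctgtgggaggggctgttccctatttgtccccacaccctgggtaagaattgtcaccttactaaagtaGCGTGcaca
Gm10639: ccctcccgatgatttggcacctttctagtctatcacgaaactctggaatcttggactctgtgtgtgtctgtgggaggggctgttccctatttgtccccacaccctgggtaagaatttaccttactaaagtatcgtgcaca
Gsta2: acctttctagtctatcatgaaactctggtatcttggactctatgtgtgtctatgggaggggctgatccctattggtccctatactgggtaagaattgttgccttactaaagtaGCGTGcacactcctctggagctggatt
Both strands of each window of 300 bases were searched for 5 motifs. GCGTG was found in Gsta1, Gm3776 and Gsta2 and in 32.4% of 32817 promoters of the same length. The antioxidant response element core TGACNNNGC, the NRF2 motif, was found among the members in the Gsta3 window alone, as TGACATTGC, and in 12.4% of all promoters. TGANTCA, the AP-1 site, and TGACGTCA, the cyclic AMP response element, had no match in the 5 windows, against 7.81% and 1.79% of all promoters. TATAAA had 1 match, in Gsta2 and on the opposite strand, against 13.6% of all promoters. TGACNNNGC and TGACGTCA share their first letters TGAC. These are letter matches in short windows and say nothing of sites further away.

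Gsta4 was the most abundant single member in all 4 libraries. Its TPM stood at 21.0 in the library titled EPS, 148 in the library titled EPS control, 37.2 with clenbuterol and 35.0 in the clenbuterol control, from 314, 1948, 512 and 488 counts. The library titled EPS control was far above the rest, and the library titled EPS was the lowest. The gene lies on mm10 chromosome 9 from 78191966 to 78209349, on the plus strand.

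Gsta1, which encodes the subunit also called Ya, was next, on chromosome 9 from 78230669 to 78242683. The library titled EPS had a Gsta1 TPM of 4.40, against 62.1 in the library titled EPS control, 21.2 with clenbuterol and 20.2 in the clenbuterol control, from 60, 734, 262 and 253 counts. Gm3776, a predicted gene on chromosome 9 from 78257129 to 78269166, had a TPM of 2.05, 43.2, 14.8 and 13.3 in the same order, from 28, 519, 186 and 170 counts. Both followed the order seen for Gsta4, with a wider gap between the lowest library and the clenbuterol pair.

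Gm10639, another predicted gene, lies on chromosome 9 from 78289928 to 78305525. It stood at a TPM of 0.467 for the library titled EPS, 9.35 in the library titled EPS control, 2.69 with clenbuterol and 2.02 in the clenbuterol control, from 7, 113, 34 and 26 counts. Gsta2, which encodes the Yc2 subunit, lies on the minus strand of chromosome 9 from 78331018 to 78347192. Its TPM was 0.244, 15.5, 5.69 and 2.71 in the same order, from 4, 184, 70 and 41 counts. In the library titled EPS these genes stood below a TPM of 1, so within that pair they passed the filter on low values through the high library alone.

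Gsta3 is the member outside the cluster, on chromosome 1 from 21240565 to 21265575. It had 4 counts in the library titled EPS, 9 in the library titled EPS control, 0 with clenbuterol and 5 in the clenbuterol control, and its TPM did not exceed 0.431. A count of 0 allows up to 3 counts, or a CPM (counts scaled to equal library size) of 0.0921. Its ratio in the EPS pair, 2.49 (0.696 to 11.1), had an interval that includes 1. At this depth no difference in Gsta3 was detectable.

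**Figure D1:**
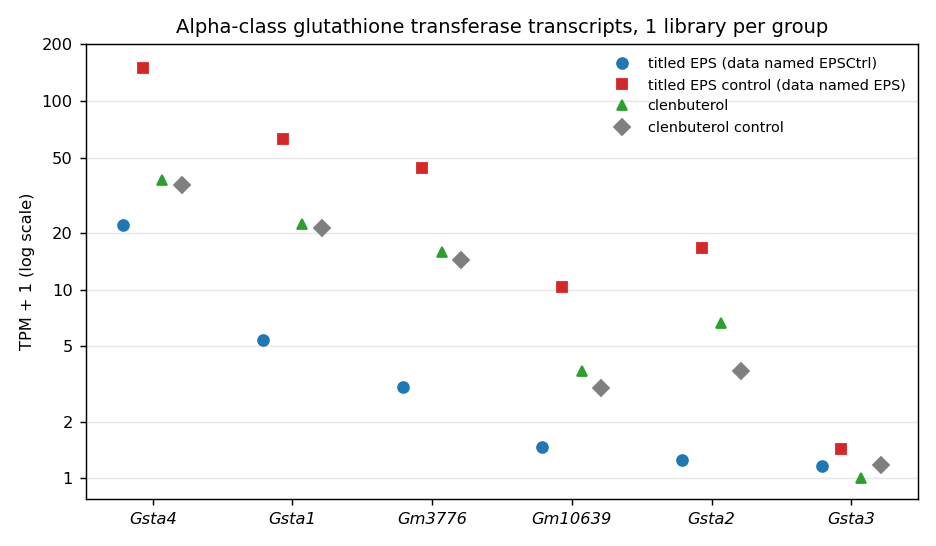
TPM plus 1 on a log axis for each of the 6 genes, with 1 point per library and no error bar because each group had 1 library. For the 5 genes other than Gsta3 the red squares (titled EPS control) are highest and the blue circles (titled EPS) lowest, with the clenbuterol pair between them.

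Summed over all 6 genes, the TPM was 28.3 in the library titled EPS, 279 in the library titled EPS control, 81.6 with clenbuterol and 73.4 in the clenbuterol control. The library at the top therefore differed from all others, and so did the library at the bottom. Against the clenbuterol control, the family was 3.66-fold higher in the library titled EPS control (3.41 to 3.94) in CPM and 2.54-fold lower in the library titled EPS (2.27 to 2.86). Neither library of the EPS pair thus matched the clenbuterol control, so that under titles or data names alike the control libraries of the pairs differed. The labels do not say whether the pairs were cultured or sequenced together, and such a difference cannot be told apart from the groups. In bulk RNA, fewer cells of a type and less RNA per cell cannot be told apart either.

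Within the EPS pair, all 5 expressed members were at least 2-fold lower by title in TPM plus 1, a direction and size found in 1.14% of 13828 genes, while 0.868% were as much higher (2.01% in either direction). In CPM the shares were 1.86% lower and 1.19% higher, and the same 5 members were past 2-fold. The contrast was among the values that chose the members, so nothing is read from that count. Gsta4 was 6.87-fold higher in the library titled EPS control than in the library titled EPS in CPM (6.10 to 7.77). Gsta1 was 13.6-fold higher (10.4 to 17.9), Gm3776 20.5-fold (14.0 to 31.2), Gm10639 17.9-fold (8.40 to 45.5) and Gsta2 51.0-fold (19.6 to 189). The value for Gsta2 rests on 4 counts in the lower library, and its log2 ratio moved from −3.73 to −1.97 with a pseudocount of 5 and to −5.67 in CPM. Gm10639, on 7 counts, moved from −2.82 to −1.39 and −4.16.

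Summed with its closest copy in coding sequence, Gsta1 with Gm3776 was 15.8-fold higher (12.7 to 19.8) and Gsta2 with Gm10639 29.9-fold higher (16.5 to 60.6) in the library titled EPS control. These intervals overlap. All 4 copies together were 17.3-fold higher (14.2 to 21.5), on 1550 counts against 99. That interval lies wholly above that of Gsta4, and the 6 genes together were 9.32-fold higher (8.42 to 10.3).

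**Figure D2:**
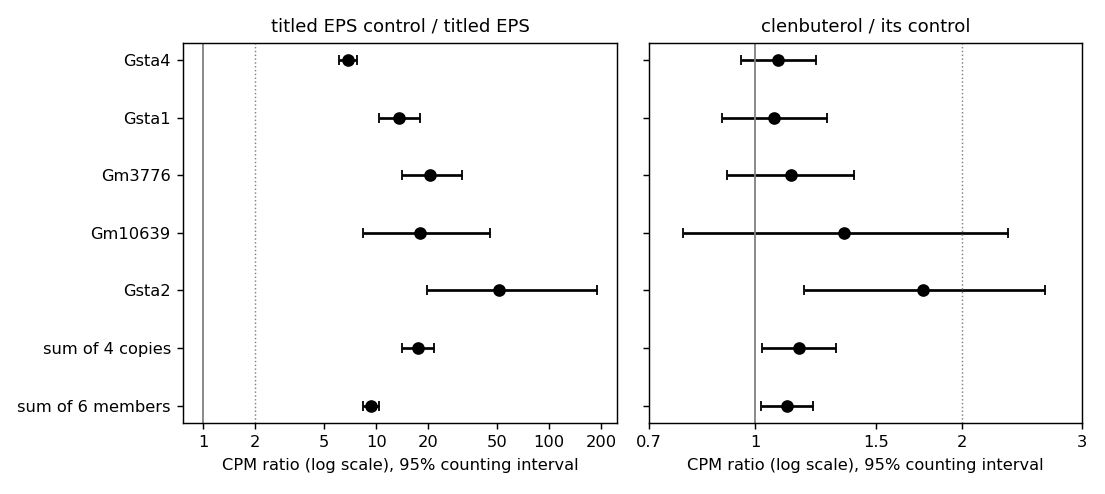
CPM ratios on log axes with 95% counting intervals, on the left for the library titled EPS control over the library titled EPS and on the right for clenbuterol over its control. The solid line marks equality and the dotted line 2-fold. Gsta3 is not plotted, since its interval in the EPS pair ran from 0.696 to 11.1 and it had 0 counts with clenbuterol. On the left every plotted interval lies above 2, with Gsta4 lowest at 6.87, and on the right the values run from 1.07 to 1.76.

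Gsta4 and the copies did not part in the same way from the clenbuterol pair. Upward, in the library titled EPS control, Gsta4 was the further from the clenbuterol control, at 4.10-fold (3.71 to 4.54) against 3.25-fold (2.93 to 3.60) for the copies. Downward, in the library titled EPS, Gsta4 was 1.68-fold lower than in the clenbuterol control (1.45 to 1.94), and the copies were 5.34-fold lower (4.29 to 6.70). Per length, the copies stood at 0.341 of the Gsta4 TPM in the library titled EPS, 0.879 in the library titled EPS control, 1.19 with clenbuterol and 1.09 in its control. In counts this ratio was 0.315 (0.249 to 0.396), 0.796 (0.744 to 0.851), 1.08 (0.954 to 1.22) and 1.00 (0.884 to 1.14), so that it was lowest in the library titled EPS beyond counting error.

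The proportions among the copies differed most in the library titled EPS, on 99 counts. Gsta1 took 60.6% of their counts in the library titled EPS (Clopper-Pearson interval 50.3 to 70.3), 47.4% in the library titled EPS control (44.8 to 49.9), 47.5% with clenbuterol (43.2 to 51.7) and 51.6% in its control (47.1 to 56.1). Its intervals in the EPS pair do not quite meet. Gm3776 took 28.3% to 34.7%, and Gm10639 took 5.31% to 7.29%, with intervals that overlap between all libraries. Gsta2 took 4.04% in the library titled EPS (1.11 to 10.02) and 11.9% in the library titled EPS control (10.3 to 13.6), intervals that also do not quite meet. It took 12.7% with clenbuterol (10.02 to 15.7) and 8.37% in the clenbuterol control (6.07 to 11.2). As Gsta1 and Gm3776 share most of their windows, the split between them is the least certain of these shares.

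**Figure D3:**
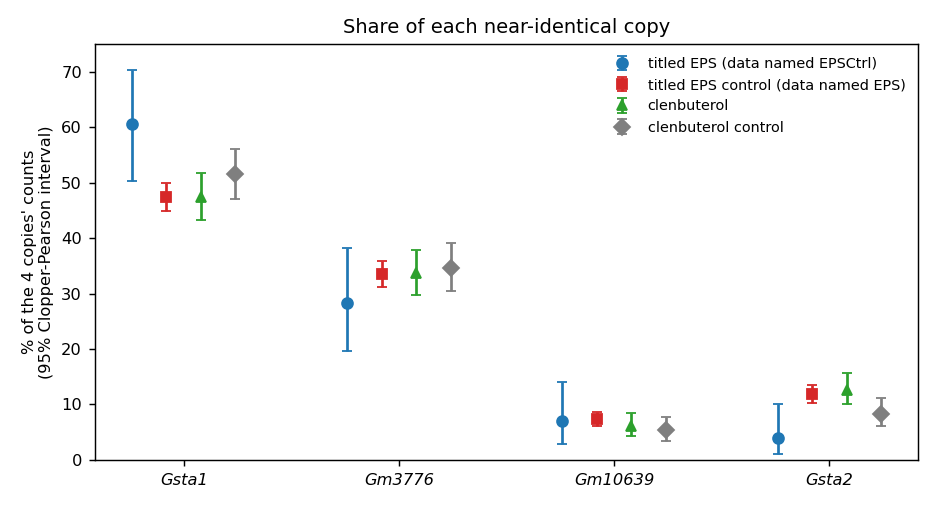
Percent of the summed counts of the 4 near-identical copies that each copy took, by library, with 95% Clopper-Pearson intervals. The shares of Gm3776 and Gm10639 overlap between all libraries, while the share of Gsta2 was 4.04% in the library titled EPS and 8.37% to 12.7% elsewhere.

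With clenbuterol the family was close to its control. No member was 2-fold different in TPM plus 1, where 1.00% of 13788 genes were higher and 0.515% lower (1.52% in either direction). In CPM these shares were 1.39% and 0.885%, again with no member among them. Gsta4 was 1.08-fold its control (0.952 to 1.22), Gsta1 1.07-fold (0.893 to 1.27), Gm3776 1.13-fold (0.910 to 1.39) and Gm10639 1.35-fold (0.784 to 2.34), all with intervals that include 1. Gsta2 was 1.76-fold higher (1.18 to 2.65) on 70 counts against 41, with a TPM ratio of 2.10 before any pseudocount, and the 4 copies together were 1.16-fold higher (1.02 to 1.31). The 6 genes summed to a 1.11-fold difference (1.02 to 1.22). These lower bounds lie just above 1 for counting error, and without replicates they cannot be set against the spread between cultures.

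Measured genes around the cluster differed less than its members in the EPS pair, a contrast among the values that chose the members. The 5 members on chromosome 9 span 78191966 to 78347192, and 30 other genes of the deposited table lie within 500 kb of that span. Of these, 11 reached a TPM of 1 in the EPS pair, and in TPM plus 1 none was 2-fold different in either pair, with log2 ratios from −0.93 to 0.26 in the EPS pair and from −0.39 to 0.10 in the clenbuterol pair. The lowest was Rn7sk, a small nuclear RNA gene near Gsta4. In CPM it was 2.05-fold higher in the library titled EPS control (1.24 to 3.43) on 48 counts against 26. Genes lodged between the members, among them the oocyte genes Omt2a and Omt2b and the pseudogenes Dppa5b and Dppa5c, had at most a TPM of 0.479. The neighbours with a TPM of at least 50 were Elovl5, a fatty acid elongase, at log2 0.07, and Eef1a1, a translation elongation factor, at 0.03. At the outer edge lies Gclc, the catalytic subunit of the enzyme that starts glutathione synthesis, at log2 −0.82 by title. Around Gsta3 on chromosome 1, 4 of 20 neighbours were measured, and none was 2-fold different. Over all genes 2.01% were past 2-fold in the EPS pair and 1.52% in the clenbuterol pair. Finding none among so few neighbours is near those shares and sets neither place apart.

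**Figure D4:**
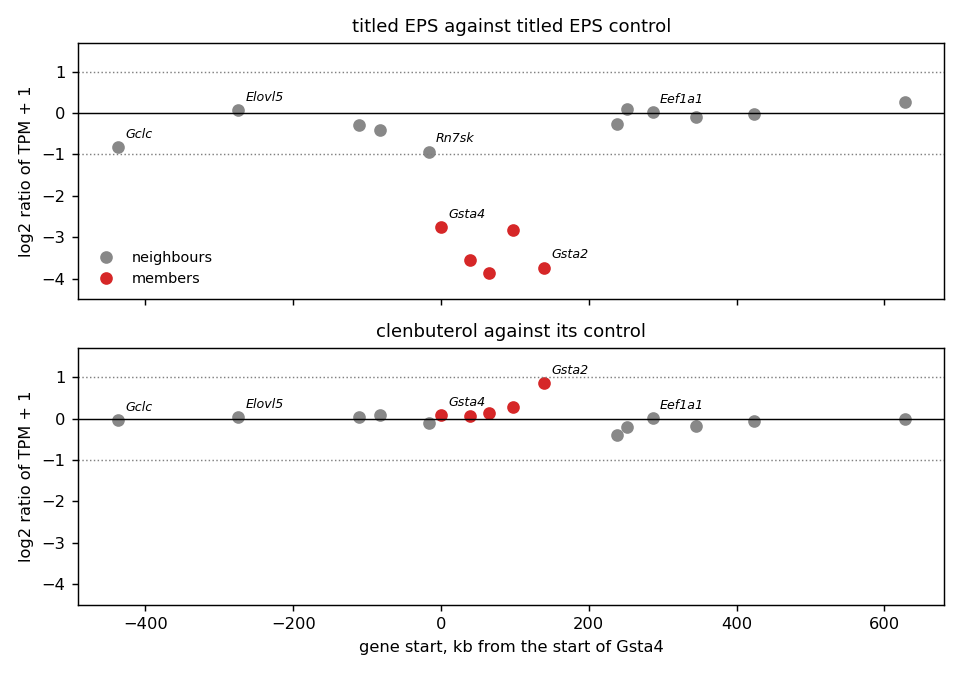
Log2 ratio of TPM plus 1 against the distance of each gene start from that of Gsta4, in kb, for genes of chromosome 9 with a TPM of at least 1 in the pair. Dotted lines mark 2-fold. The 5 red points, the members, lie between −2.76 and −3.86 in the upper panel, and all grey points, their neighbours, lie inside the dotted lines in both panels.

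Other glutathione genes differed far less. Of 12 measured glutathione transferases of the other cytosolic classes, 1 was at least 2-fold lower by title in the EPS pair and 0 were higher. In that pair 1.14% of all genes were as much lower. The median log2 ratio of the list was −0.01, against −0.02 for all genes. The gene past 2-fold was Gstm1, of the mu class. Its TPM stood at 22.4 for the library titled EPS, 81.1 in the library titled EPS control, 41.8 with clenbuterol and 43.1 in its control. It had the same order of libraries at the extremes as the alpha class, and was 3.53-fold higher in the library titled EPS control (3.17 to 3.93). Gstp1, the pi-class enzyme and most abundant of the list there, had a TPM of 210 and 350 in the EPS pair, a 1.63-fold difference (1.54 to 1.71). Of 3 measured kappa and microsomal genes, 2 were below 0 by title and 1 above, and 1 was at least 2-fold lower. That gene was Mgst1, a membrane-bound transferase, 2.41-fold higher in the library titled EPS control (1.92 to 3.02). Gstk1 was at 0 in all libraries.

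The enzymes that make and use glutathione were mixed. Of 13 measured genes of glutathione synthesis and recycling, 1 was at least 2-fold lower by title, where 1.14% of all genes were. The list's median was −0.23 on the log2 scale, against −0.02 for all genes and −0.33 for the myotube markers. The gene past 2-fold was Gclm, the modifier subunit that works with Gclc, 2.24-fold higher in the library titled EPS control (2.03 to 2.48). Gclc itself differed 1.75-fold (1.62 to 1.90), and Gss, which adds the last amino acid of glutathione, stood at a TPM of 82.0 and 81.6. Of 5 glutathione peroxidase genes none was 2-fold different (median 0.05), and of 5 conjugate exporters none was (median −0.21). Abcc1, the main exporter of glutathione conjugates in many cells, differed 1.61-fold (1.54 to 1.68).

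Of the 13 genes on the NRF2 target list, 4 were at least 2-fold lower by title in the EPS pair and 0 were higher, where 1.14% of all genes were as much lower. All 13 log2 ratios were below 0, with a median of −0.73 against −0.02 for all genes. Of the 10 myotube markers 9 were also below 0, with a median of −0.33, and the part of that shift here was not tested. The 4 NRF2 targets past 2-fold were Hmox1 (haem oxygenase), Srxn1 (sulfiredoxin), Txnrd1 (thioredoxin reductase) and Pgd of the pentose phosphate pathway. Their log2 ratios were −2.46, −1.29, −1.16 and −1.05 in that order. Pgd falls outside the naming rule and was chosen after its values were seen. Of 17 measured genes of carbonyl and quinone detoxification, 2 were at least 2-fold lower, the aldehyde dehydrogenase Aldh3a1 and the quinone reductase Nqo1. In CPM Aldh3a1 was 7.49-fold higher in the library titled EPS control (5.62 to 10.2), beside 6.87-fold for Gsta4. The list split into 8 genes above 0 and 9 below, with a median of −0.03 near that of all genes. Among 8 NRF2 regulators none was 2-fold different in either pair. By title 7 of the 8 were below 0 in the EPS pair (median −0.33), and 7 of the 8 were above 0 in the clenbuterol pair (median 0.20). Nfe2l2, the gene of NRF2 itself, was the exception in the EPS pair, at a TPM of 131 for the library titled EPS, 123 in the library titled EPS control, 162 with clenbuterol and 120 in its control. Keap1, the gene of its inhibitor, had a TPM of 32.0, 41.5, 29.3 and 30.9 in the same order. These lists were chosen with results of these data known and are not independent support.

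The aryl hydrocarbon receptor list shares Aldh3a1 and Nqo1 with the detoxification list. Of its 7 measured genes 2, those same enzymes, were at least 2-fold lower by title in the EPS pair, where 1.14% of all genes were. The list's median was −0.58, against −0.02 for all genes and −0.33 for the myotube markers. The part of the marker shift in this list was not tested. Cyp1a1, the best known target of that receptor, had at most 2 counts in any library, and Cyp1b1 differed 1.62-fold (1.52 to 1.73). In the clenbuterol pair Tiparp, a receptor-induced ADP-ribosyltransferase, was the single gene of these lists past 2-fold, at log2 1.30. The list medians of that pair ran from −0.05 to 0.25, and that of the alpha class was 0.14.

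**Figure D5:**
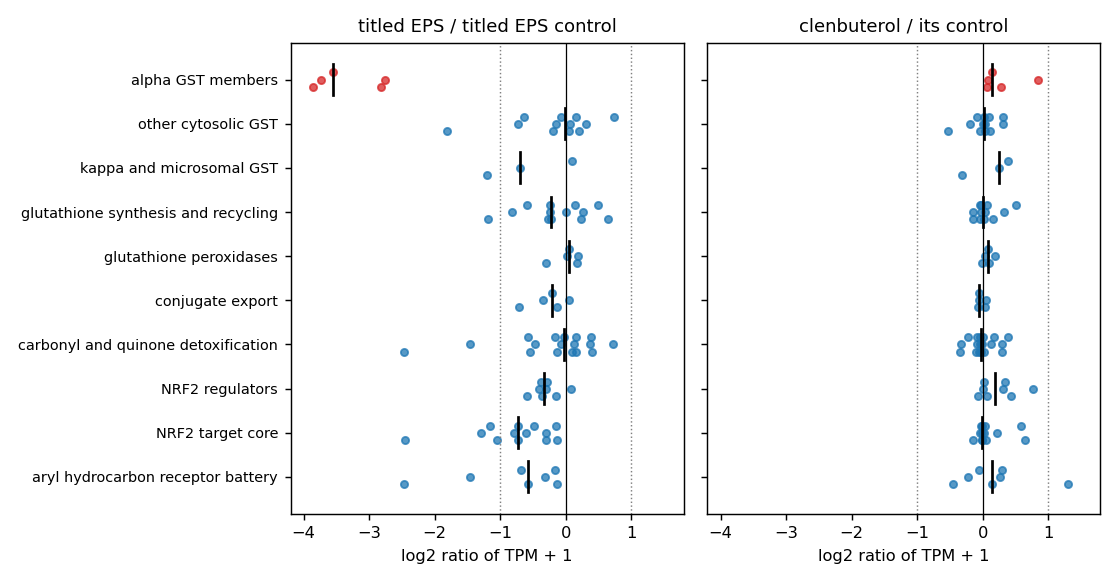
Log2 ratio of TPM plus 1 for each measured gene of the alpha class (red) and of related gene lists (blue), with the median of each list as a black bar and 2-fold as dotted lines. In the EPS pair on the left the alpha class has a median of −3.55, and the NRF2 target list is next at −0.73. Single genes of other lists came close to the members, with Aldh3a1 at −2.47 and Hmox1 at −2.46 beside Gsta4 at −2.76. In the clenbuterol pair on the right Tiparp alone is past 2-fold.

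Likeness to the family was measured over the 4 libraries, as the Euclidean distance between log2 levels of TPM plus 1 centred on each gene's mean. Of 11222 genes that reached a TPM of 5 in any library, the nearest to the summed members was Aldh3a1 (distance 0.68), whose TPM was 2.13 for the library titled EPS, 16.4 in the library titled EPS control, 8.26 with clenbuterol and 6.54 in its control. The chemokine genes Ccl2 (0.82) and Ccl7 (0.97), the tissue factor gene F3 (1.01) and Gstm1 (1.05) came next. They were followed by Mrvi1 (1.12), the noncoding gene Atcayos (1.21) and Nqo1 (1.30). The 5 expressed members themselves lay at 0.32 to 0.72 from their own sum. With 4 points and the EPS pair at both extremes, the measure mostly follows that pair, and nothing is said of shared control.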

How the data were processed

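Messenger RNA libraries were made with a stranded TruSeq kit, per the labels' protocols, and reads were aligned with HISAT2 to mm10, per the submitters' processing notes. The sources used here name neither the program behind the values nor its annotation release or use of strand. The authors deposited whole-number read counts per gene, treated here as estimated counts, with FPKM and TPM in 1 joint table. The deposited single-library tables add coverage (a signal, not used) and coordinates, and their TPM for the members equalled the joint table. Whether mates or fragments were counted is not stated, and if mates, the intervals are too narrow.

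The columns of the joint table were assigned by the data name that each record carries. Ratios were taken between log2 values of TPM plus a pseudocount of 1. Genes entered a pair if either library reached a TPM of 1, and 2-fold was the call. Folds are CPM scaled by TMM factors (edgeR 4.0.16, R 4.3.3) with exact Clopper-Pearson 95% intervals, and none is given where a library had 0 counts. In the CPM shares of all genes, counts below 3 were raised to a floor of 3. That floor also replaced a 0 in the CPM ratios of the alternatives. DESeq2 1.42.0 gave alternative size factors. Other values came from Python 3.11.15, numpy 2.4.6, pandas 2.3.3, scipy 1.17.1 and Biopython 1.88, and plots from matplotlib 3.10.9. With 1 library a group no test was run. The calls and intervals were tested on simulated data. Those data held counting error alone, without spread between cultures or reads shared by copies.

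The members and the 18 gene lists (151 entries, all found) were chosen with earlier results of these data known. Named genes were all members, up to 3 genes on each side of every related list past 2-fold, the 8 genes nearest in pattern, and neighbours within 500 kb that were past 2-fold or at a TPM of at least 50. Other named genes were chosen after their values were seen. Fibroblast markers summed to a TPM of 790 to 1433, myoblast markers to 70.3 to 89.6, endothelial markers to at most 0.222 and adipocyte markers to at most 0.427. Alternatives were pseudocounts of 0.1 and 5, FPKM, CPM by 3 scalings, the single-library tables, no filter and the sum of the copies. Copies were judged by coding sequence, because no protein table was used here.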

Additional observations from a re-analysis of the deposited data

How the results depend on the processing

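The family sum stayed lower by title in the EPS pair in all 8 alternatives (log2 −3.25 as reported). It moved beyond counting error to −3.09 with a pseudocount of 5 and to −4.01 for the 4 copies alone. In the clenbuterol pair it stayed between 0.13 and 0.21. All 5 expressed members were past 2-fold in the EPS pair under all 7 alternatives, and in the clenbuterol pair the count of 0 became 1, Gsta2, with a pseudocount of 0.1. The single-library tables equalled the joint table, so that alternative could move neither these counts nor the family sum. The EPS contrast was among the values that chose the members, and Gsta2 and Gm10639 entered it through the high library alone. Nothing is therefore read from the count of 5. Of 84 values for single members under the alternatives 71 moved by less than counting error, 13 by more, and 0 changed sign. The 71 include single-library values, which equalled the joint table and so could not move. They also include Gsta3 in the clenbuterol pair, where a count of 0 left an interval too wide for its shifts to pass. The number of all genes past 2-fold depended on the scale. In the EPS pair 278 became 571 with a pseudocount of 0.1, 45 with 5 and 422 in CPM. In the clenbuterol pair 209 became 450, 43 and 314. No paired analysis was possible because each group had 1 library, and for the same reason no library could be left out. Depth limits Gsta3, with 18 counts in all, and Gsta2 and Gm10639 in the library titled EPS.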
